A study of Mus musculus with 12 samples.

Results

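The genes described here are 38 genes of the cell division cycle and of DNA replication, taken by symbol from the 30740 symbols of a gene expression table of embryonic mouse spinal cord, and all 38 were found in it. They were listed by name, and no cutoff on their values was used. Earlier results of these data were known when the list was made. RNA came from ventral spinal cord of CB6F1/J mouse embryos at E12.5 (embryonic day), dissociated and sorted by flow cytometry on the reporter transgene Hb9:GFP, which marks spinal motor neurons through regulatory sequence of Mnx1. There were 5 GFP-positive libraries from knockouts of Arhgap35, which encodes the GTPase-activating protein p190, and 5 from control littermates, which the labels call wild type and the protocol describes as wild-type or p190+/-. GFP-negative cells gave 1 control and 1 knockout library. Every group thus shares the strain, the stage, the tissue and the reporter, and each library pools cells of several embryos. The labels name motor neurons as the cell type of all 12 libraries. Motor neuron markers (9 of 9 called higher) summed to 1650 to 2136 CPM (counts scaled for library depth) in GFP-positive and 64.7 to 69.7 CPM in GFP-negative libraries, so markers of that cell type were low in the GFP-negative libraries. Nothing in the labels ties a replicate to its own litter or day, so the tests weigh differences against library-to-library spread that may be technical.

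A dividing cell loads the MCM helicase onto replication origins with Cdc6 and Cdt1, fires them when cyclin E and cyclin A kinases become active, and copies its DNA with PCNA-clamped polymerases fed by ribonucleotide reductase and thymidylate synthase. Cyclin B with Cdk1 then starts mitosis, Aurora and Polo kinases and the Bub checkpoint proteins govern the spindle, and Cdc20 switches on the anaphase-promoting complex that ends it. Entry into the cycle depends on D-type cyclins with Cdk4 and Cdk6, which release E2F factors from RB proteins, and is opposed by CDK inhibitors of the Cip/Kip and INK4 families. In the embryonic spinal cord, progenitors that line the central canal divide, and the motor neurons born from them have left the cycle.

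Libraries held 23.7 to 33.8 M estimated counts, and 3 counts corresponded to 0.0891 to 0.127 CPM. Arhgap35 itself was at 135.5 to 202 CPM in control and 88.2 to 106 CPM in knockout GFP-positive libraries, which do not overlap; the labels do not say which part of the gene the knockout lacks, so RNA from the rest of it may be counted. The 38 genes together took 0.0564 to 0.0891% of the counts in GFP-positive and 0.355 to 0.365% in GFP-negative libraries. In the knockout GFP-positive library of replicate 2, erythroid markers summed to 27.8 CPM, against 2.49 to 16.6 CPM in the other GFP-positive libraries.

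The comparison of sorted fractions asks how much of the division machinery is left in cells with an active motor neuron reporter. Of the 38 genes, 37 were lower in GFP-positive than in GFP-negative cells and 1, the CDK inhibitor Cdkn1a, was higher (edgeR's quasi-likelihood test, adjusted p under 0.05 over 19032 genes). For comparison, 32.6% of all genes tested were called lower and 31.1% higher. The 37 include Cdkn2c, which passed the filter on low counts only through the GFP-negative libraries. That filter itself favoured a lower call for Cdkn2c. The median log2 fold change was -3.04 over the 38 genes and 0.015 over all genes tested. In bulk RNA, fewer cells of a type and less RNA per cell cannot be told apart. Because there are only 2 GFP-negative libraries, 1 of each genotype, the spread within that fraction rests on the fit's shared estimate.

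The depth of the loss differed widely from gene to gene. A residual level is given here as the mean CPM of the 10 GFP-positive libraries in percent of the mean of the 2 GFP-negative ones. It was under 10% for 17 of the 38 genes, Cdkn2c among them (2.14% of all genes tested). It was between 10 and 25% for 9, and between 25.2 and 76.2% for 11 that were still called lower. In 37 of the 38 genes each GFP-positive library lay below both GFP-negative libraries (32.4% of all genes tested). The plot of every library in percent of the GFP-negative mean shows this range.

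**Figure D1:**
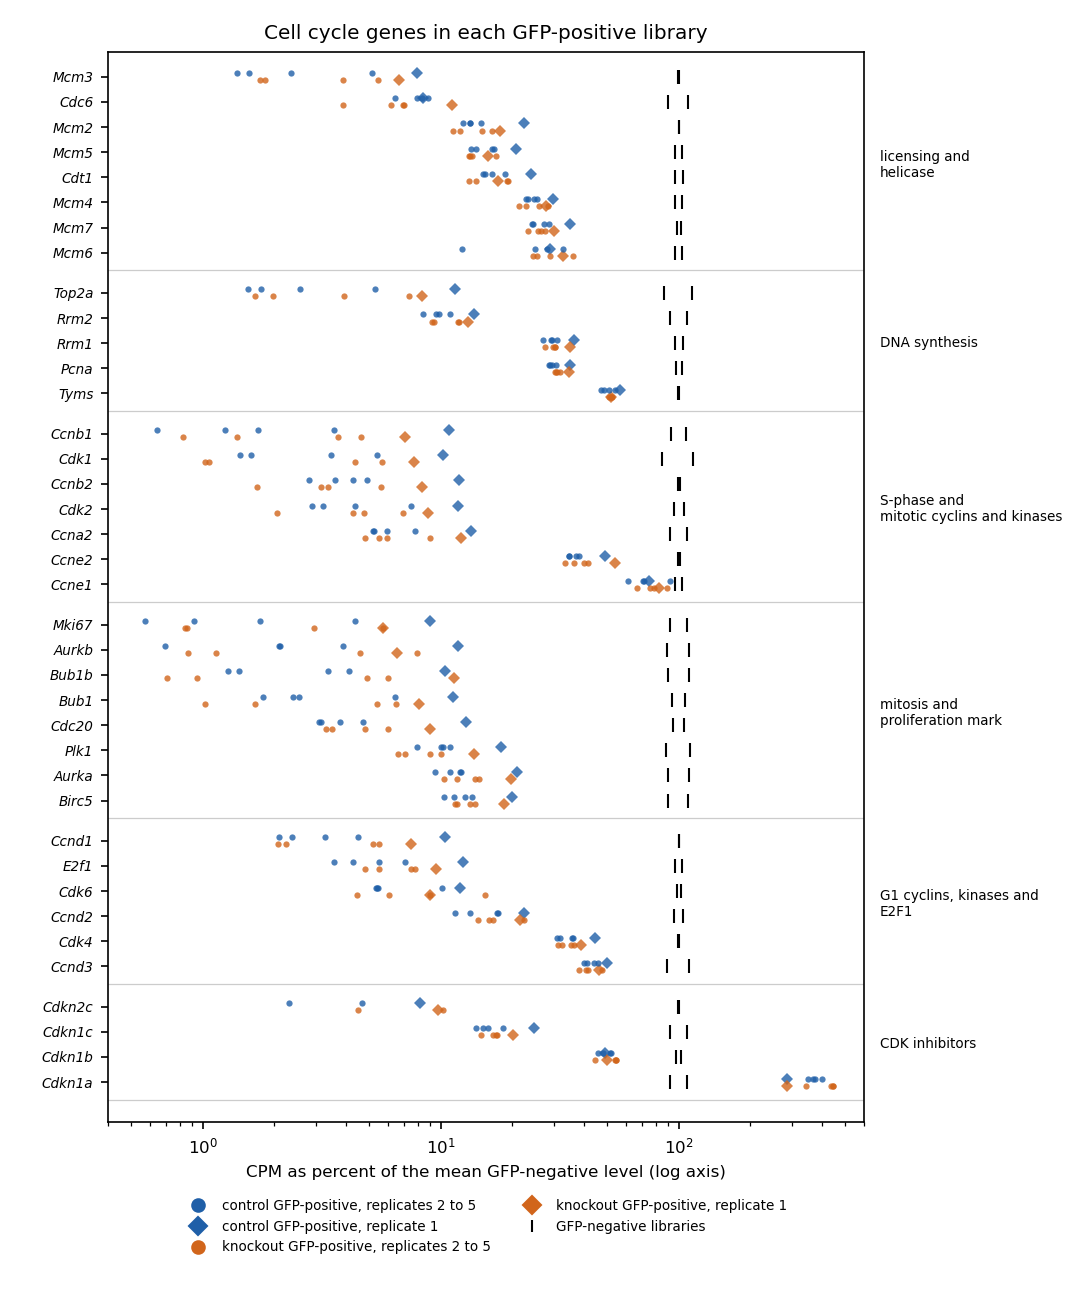
Level of each of the 38 genes in the 10 GFP-positive libraries, as CPM in percent of the mean of the 2 GFP-negative libraries (log axis), grouped by role; blue is control, orange is knockout, diamonds are replicate 1, and black ticks are the GFP-negative libraries. Cdkn1a lies above 100%, Mki67 runs from 0.575% to 9.01%, and 4 libraries with 0 counts of Cdkn2c are not drawn.

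Licensing factors bring the Mcm helicase, a ring of 6 different subunits, to origins before S phase. All 8 genes of this group were called lower, with a median log2 fold change of -2.62. The lead member by level was Mcm7, a helicase subunit, measured at 53.3, 43.6, 37.3, 41.6 and 37 CPM in control replicates 1 to 5, at 45.5, 42, 40.1, 39.3 and 35.4 CPM in knockout replicates 1 to 5, and at 150.1 (control) and 155 CPM (knockout) in GFP-negative cells. Replicate 1 was the highest in each genotype, and the fractions did not overlap. The Mcm7 log2 fold change was -1.88 (SE 0.116, adjusted p = 1.17e-08), and 27.2% of the GFP-negative level remained. Mcm4 kept 25.2% and Mcm6 27.4%, with log2 fold changes of -1.99 (95% confidence interval -2.22 to -1.76) and -1.87 (95% confidence interval -2.45 to -1.30). Mcm6 was at 9.53 CPM in control replicate 5 and at 19.0 to 28.0 CPM in the other GFP-positive libraries. Mcm2 and Mcm5 kept 14.8% and 15.4%. Mcm3 kept only 3.8%, with 0.795 to 4.54 CPM in GFP-positive and 56.6 and 57.3 CPM in GFP-negative libraries, and its log2 fold change of -4.71 (95% confidence interval -5.96 to -3.47) has an interval that does not overlap those of the other 5 Mcm genes. No test compared one Mcm gene with another.

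The loader Cdc6 was among the 3 least abundant members, at 0.894, 0.68, 0.84, 0.878 and 0.932 CPM in control replicates 1 to 5, at 1.18, 0.743, 0.735, 0.653 and 0.411 CPM in knockout replicates 1 to 5, and at 9.53 (control) and 11.6 CPM (knockout) in GFP-negative cells. These are 12 to 30 counts in GFP-positive and 281 to 318 counts in GFP-negative libraries, and the fractions did not overlap. Between fractions Cdc6 changed by -3.74 (SE 0.24, adjusted p = 4.61e-09) on the log2 scale. Cdt1, which delivers the helicase to origins, kept 17.2%, at 2.52 to 4.6 CPM against 18.4 and 19.9 CPM.

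All 5 genes of DNA synthesis were called lower (median log2 fold change -1.71), with residual levels from 4.6% to 51.6%. Rrm1, the large subunit of ribonucleotide reductase, was found at 44.3, 37.3, 35.4, 35.8 and 32.8 CPM in control replicates 1 to 5, at 42.7, 36.8, 36.9, 35.9 and 33.4 CPM in knockout replicates 1 to 5, and at 117 (control) and 126 CPM (knockout) in GFP-negative cells. It changed by -1.71 (SE 0.095, adjusted p = 2.67e-09) on the log2 scale and was nearly even across GFP-positive libraries, with the highest 1.35-fold above the lowest. Rrm2, the small subunit, kept 10.8% where Rrm1 kept 30.5%; its log2 fold change was -3.21 (95% confidence interval -3.54 to -2.88) against -1.71 (95% confidence interval -1.92 to -1.51) for Rrm1.

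Pcna, the sliding clamp, stood at 35.6 ± 2.49 CPM (SD, n = 10) in GFP-positive libraries and 112 and 118 CPM in GFP-negative ones, with 31% left and a log2 fold change of -1.69 (SE 0.0681, adjusted p = 1.67e-10). Tyms, thymidylate synthase, had a residual level of 51.6% by CPM and 32.6% by the deposited TPM (values scaled for transcript length as well as depth), and its log2 fold change was -0.95 (SE 0.0653, adjusted p = 1.80e-08). Top2a, the topoisomerase that separates sister chromatids, kept the least of the group, 4.6%, with 3.05 to 22.8 CPM in GFP-positive and 172 and 224 CPM in GFP-negative libraries. Pcna shares 23.3% of its 31-base words with the pseudogene Pcna-ps2, which was at no more than 0.0788 CPM in any GFP-positive library.

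Among S-phase and mitotic cyclins and their kinases, the 2 E-type cyclins stood apart from the other 5 genes. Ccne1, cyclin E1, was measured at 8.88, 7.31, 8.52, 8.45 and 10.9 CPM in control replicates 1 to 5, at 9.78, 10.6, 7.96, 9.32 and 8.97 CPM in knockout replicates 1 to 5, and at 12.3 (control) and 11.5 CPM (knockout) in GFP-negative cells. The highest GFP-positive library, control replicate 5, reached 10.9 CPM against 11.5 CPM in the lower GFP-negative library, so the fractions came close without overlapping. The log2 fold change of Ccne1 was -0.39 (SE 0.128, adjusted p = 0.0134), the smallest of the 38. With the replicate number as a block 36 of the 38 genes were called lower (29.6% of all genes tested) and Cdkn1a higher (27.9%). Both GFP-negative libraries have number 1, so with this block the difference between fractions is estimated within replicate 1. Replicates 2 to 5 then inform only the spread and the genotype term. The call of Ccne1 was lost when the replicate number was entered as a block (-0.35, adjusted p = 0.0778), without the control GFP-negative library (-0.31, adjusted p = 0.184), and in either genotype alone (adjusted p = 0.0865 in control and 0.140 in knockout libraries). Ccne2, cyclin E2, kept 39.8%, with a log2 fold change of -1.33 (SE 0.166, adjusted p = 4.30e-06). Its libraries were at 3.22 to 5.20 CPM in GFP-positive and 9.57 and 9.79 CPM in GFP-negative cells. Exons of Ccne2 overlap Ints8 on the opposite strand over 17.4% of their length, and the libraries do not keep strand. Ints8 was more abundant, at 58.2 to 72.7 CPM in GFP-positive and 99.4 to 102 CPM in GFP-negative libraries, and its part in the level of Ccne2 was not tested.

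The remaining 5 genes kept between 3.56% and 7.49%. Ccnb1, cyclin B1, was at 7.72, 2.55, 1.22, 0.46 and 0.89 CPM in control replicates 1 to 5, at 5.09, 3.3, 2.65, 0.594 and 0.993 CPM in knockout replicates 1 to 5, and at 66.4 (control) and 76.6 CPM (knockout) in GFP-negative cells. Replicate 1 was the highest library in each genotype and replicate 4 the lowest. The change of Ccnb1 was -4.80 (SE 0.79, adjusted p = 1.06e-04) on the log2 scale, and DESeq2 gave it no adjusted p. Residual levels were 4.2% for Cdk1, the mitotic kinase, 4.96% for Ccnb2, 5.67% for Cdk2, the partner of cyclins E and A, and 7.49% for Ccna2.

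The mitosis group held the lowest residual level of the 38, that of Mki67, which encodes the proliferation antigen Ki-67 and lies at chr7:135689784-135716361 on the minus strand of GRCm38. Mki67 was at 13.9, 6.76, 2.69, 1.42 and 0.89 CPM in control replicates 1 to 5, at 8.87, 8.83, 4.53, 1.31 and 1.33 CPM in knockout replicates 1 to 5, and at 142 (control) and 168 CPM (knockout) in GFP-negative cells. The lowest library, control replicate 5, had 21 counts, and the GFP-negative libraries had 4182 and 4592 counts. The log2 fold change of Mki67 was -4.93 (SE 0.836, adjusted p = 1.34e-04), its mean residual level was 3.27%, and single libraries ran from 0.575% to 9.01%. Aurkb, the kinase of the chromosomal passenger complex, was among the 3 least abundant members, at 2.85, 0.935, 0.504, 0.167 and 0.508 CPM in control replicates 1 to 5, at 1.58, 1.9, 1.1, 0.208 and 0.274 CPM in knockout replicates 1 to 5, and at 21.5 (control) and 26.5 CPM (knockout) in GFP-negative cells. The Aurkb log2 fold change was -4.57 (SE 0.766, adjusted p = 9.61e-05), and knockout replicate 2 rather than replicate 1 was the highest knockout library.

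All 8 mitosis genes were called lower, with a median log2 fold change of -4.30. The spindle checkpoint genes Bub1 and Bub1b kept 4.72% and 4.45%, and Cdc20, the activator of the anaphase-promoting complex, kept 5.4%. Larger shares were left of Plk1, Polo-like kinase 1 (10.3%), Aurka, the centrosomal Aurora kinase (13.6%), and Birc5, survivin (13.7%). Plk-ps1, a pseudogene copy of Plk1, was listed at 1.23 to 2.61 CPM in GFP-positive libraries, and reads of the 2 genes are told apart only where their sequence differs. By TPM the residual level of Birc5 was 6.64%. Birc5 and Tyms were the only members whose residual levels by CPM and by TPM differed by more than 1.5-fold.

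The D-type cyclins, which couple outside signals to cycle entry, kept different shares of their RNA. Ccnd1 fell from 217 and 218 CPM to 4.48 to 22.7 CPM, a residual level of 4.51% and a log2 fold change of -4.47 (95% confidence interval -5.74 to -3.20). Ccnd2 kept 17.3%, with -2.54 (95% confidence interval -2.99 to -2.09). Ccnd3 kept 43.5%, at 9.96 to 13.1 CPM against 23.5 and 29 CPM and with -1.20 (95% confidence interval -1.43 to -0.97). The 3 intervals do not overlap, though the genes were not tested against each other. Exons of Ccnd1 overlap LTO1 on the opposite strand over 23.4% of their length.

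Of their kinases, Cdk4 (chr10:127063534-127067920 on the plus strand of GRCm38) was the most abundant of the 38 genes, at 217, 153, 173, 174 and 149 CPM in control replicates 1 to 5, at 189, 157, 176, 171 and 151 CPM in knockout replicates 1 to 5, and at 487 (control) and 484 CPM (knockout) in GFP-negative cells. The fractions were far apart, and control replicate 1 was the highest GFP-positive library. The log2 fold change of Cdk4 was -1.51 (SE 0.117, adjusted p = 1.20e-07), with 35.2% left. Its exons overlap those of Tspan31 on the opposite strand over 19.7% of their length; Tspan31 was at 32.5 to 42.5 CPM in GFP-positive and 55.8 to 58.3 CPM in GFP-negative libraries. Cdk6 kept 8.23%, at 1.31 to 4.5 CPM against 28.8 and 29.9 CPM. E2f1, the transcription factor that D-type cyclin kinases release, kept 6.79%, at 2.12 to 7.39 CPM against 57.5 and 61.8 CPM.

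CDK inhibitors did not move together. Cdkn1a, which encodes p21 and lies at chr17:29090976-29100727 on the plus strand of GRCm38, was measured at 12.4, 17.3, 15.2, 16 and 16.3 CPM in control replicates 1 to 5, at 12.4, 19.4, 14.8, 19.4 and 18.9 CPM in knockout replicates 1 to 5, and at 3.97 (control) and 4.71 CPM (knockout) in GFP-negative cells. Every GFP-positive library lay above both GFP-negative ones (29.9% of all genes tested did so), and replicate 1 was the lowest library in each genotype. Its log2 fold change was 1.90 (SE 0.17, adjusted p = 1.02e-06), and the mean GFP-positive level was 373% of the GFP-negative level.

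The other Cip/Kip genes were called lower. Cdkn1c, which encodes p57, was at 186, 114, 119.9, 138 and 107 CPM in control replicates 1 to 5, at 153, 129, 131, 126 and 112 CPM in knockout replicates 1 to 5, and at 818 (control) and 697 CPM (knockout) in GFP-negative cells. Although 17.4% of its GFP-negative level remained and its log2 fold change was -2.52 (SE 0.176, adjusted p = 7.88e-08), it was the second most abundant member per length in GFP-positive cells, at 165 TPM. Its exons overlap the antisense gene Gm44732 over 30.7% of their length. Cdkn1b, which encodes p27, was at 47.6, 50.0, 46.7, 50.5 and 44.5 CPM in control replicates 1 to 5, at 48.3, 52.2, 52.6, 53 and 42.9 CPM in knockout replicates 1 to 5, and at 94.8 (control) and 99.1 CPM (knockout) in GFP-negative cells. Cdkn1b changed by -0.99 (SE 0.0699, adjusted p = 2.28e-08) on the log2 scale, which left 50.4%, and its libraries varied little, with the highest 1.24-fold above the lowest.

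The INK4 inhibitor Cdkn2c, which encodes p18, was the least abundant member. It had 9, 4, 2, 0 and 0 counts in control replicates 1 to 5, 9, 9, 4, 0 and 0 counts in knockout replicates 1 to 5, and 107 and 100 counts in the GFP-negative libraries of the 2 genotypes. Where it had 0 counts, the limit that 3 counts set lies between 0.0891 and 0.127 CPM. The log2 fold change of Cdkn2c was -4.65 (SE 0.791, adjusted p = 6.44e-05), and it passed the filter on low counts only through the GFP-negative libraries; the other 37 genes passed it on the GFP-positive libraries alone.

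Per length, 3 of the 4 inhibitors were among the 8 most abundant of the 38 genes in GFP-positive cells. By mean TPM, Cdk4 (415) and Cdkn1c (165) were followed by Pcna (55.3), Mcm7 (48.7), Cdkn1b (37.7), Rrm1 (21.3), Ccnd3 (20.1) and Cdkn1a (19.4). In the GFP-negative libraries Cdk4 and Cdkn1c also ranked 1 and 2, Cdkn1b ranked 10 at 72.3 TPM, Ccnd3 ranked 23 at 40.1 TPM and Cdkn1a ranked 37 of 38 at 5.09 TPM. Libraries of neighbours in this order overlapped from Pcna to Mcm7 to Cdkn1b, and among Rrm1, Ccnd3 and Cdkn1a. At the other end, 20 of the 38 genes averaged under 5 TPM in GFP-positive cells, among them Mki67 (1.15 against 34.4 TPM), Cdk6 (0.48 against 5.71 TPM) and Cdkn2c (0.154 against 4.2 TPM).

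The genes that kept least were also the least even from library to library, a pattern picked out after the values were seen and described without a test. Over the 16 genes under 10% that had counts in every library, the highest GFP-positive library exceeded the lowest by a median of 6.39-fold (2.78 to 17). Over the 9 genes between 10 and 25% the median was 1.93-fold (1.57 to 2.69), and over the 11 above 25% it was 1.4-fold (1.21 to 2.94, the upper value being that of Mcm6). Of the 36 genes with a mean of at least 1 CPM, 14 ranged over more than 3-fold, against 4.83% of all genes at that level. Both measures share the GFP-positive libraries, and low counts add to the spread of the rarest genes.

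**Figure D2:**
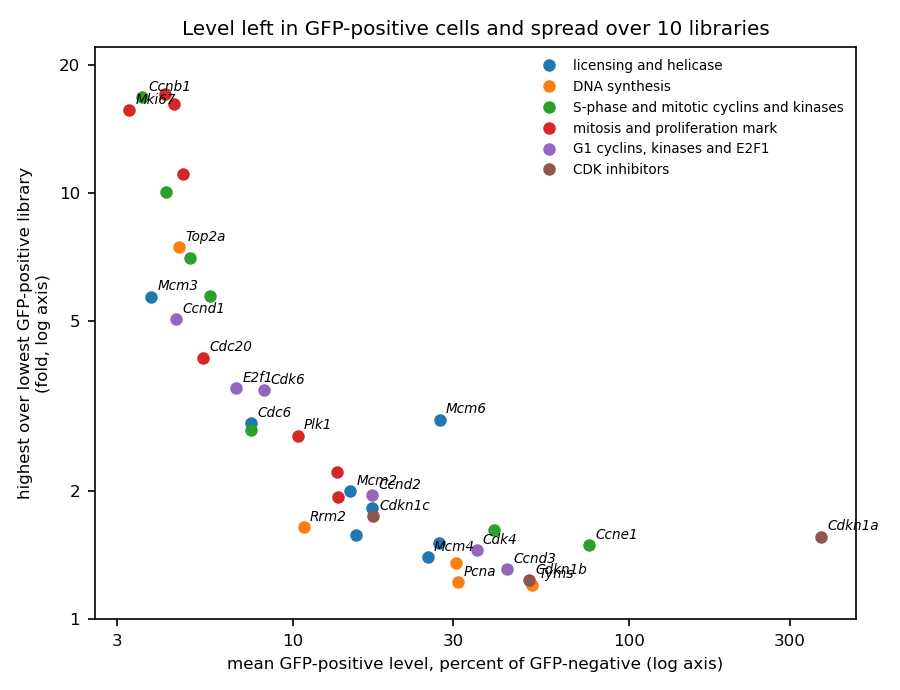
Fold between the highest and the lowest of the 10 GFP-positive libraries (log axis) against the mean GFP-positive level in percent of the GFP-negative level (log axis) for the 37 genes with counts in every library; colours give the role. Genes under 10% spread over 2.78 to 17-fold, and those between 25 and 100% over 1.21 to 2.94-fold.

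This spread followed the replicate number. In 24 of 37 genes replicate 1 was the highest of 5 in both genotypes (12.2% of all genes tested), and control replicate 1 was the highest GFP-positive library for 28 of the 38. The summed level of the 8 mitosis genes was 48.3, 22.7, 17.6, 13.3 and 13.7 CPM in control replicates 1 to 5, 37.6, 28.2, 23.3, 11.6 and 12.3 CPM in knockout replicates 1 to 5, and 361 and 430.5 CPM in the GFP-negative libraries. With the 2 replicate 1 libraries left out, 18 of the 38 genes were under 10%, all 38 calls remained, and the residual levels of 2 genes, Ccnb1 (3.56 to 2.21%) and Bub1b (4.45 to 2.83%), moved by over 1.5-fold. In replicate 1 alone, each GFP-positive library has a GFP-negative one of its number. There 10 genes were under 10% and 0 under 5%, against 17 and 11 over all 10 GFP-positive libraries. Residual levels of 16 genes moved by over 1.5-fold from those over all 10, by up to 2.51-fold, and Mki67 stood at 7.37%.

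Markers of other cells were read in the same libraries. All 12 listed markers of neural progenitors were called lower in GFP-positive cells and none was at 0 in any library. Their summed level was 545, 466, 434, 426 and 413 CPM in control replicates 1 to 5, 502, 521, 530, 439 and 425 CPM in knockout replicates 1 to 5, and 2070 and 2239 CPM in the GFP-negative libraries. Control replicate 1 was thus the highest control library by this sum, as for the mitosis genes, but knockout replicate 3 was the highest knockout library and knockout replicate 1 only the third. The intermediate filament genes Vim and Nes made up most of it in GFP-positive libraries. Gene by gene, replicate 1 was the highest of 5 in both genotypes for 9 of the 12 markers. The exceptions were Nes, Vim and Pax6. Averaged over both genotypes, Pax6 was at 20.4 CPM in replicate 4. It was at 5.22, 3.18, 2.25 and 1.36 CPM in replicates 1, 2, 3 and 5. Sox2, a transcription factor of neural progenitors named here with its values known, was at 12.4, 9.26, 4.58, 3.22 and 2.84 CPM in control replicates 1 to 5, at 10.8, 9.41, 6.86, 3.33 and 2.81 CPM in knockout replicates 1 to 5, and at 161 (control) and 167 CPM (knockout) in GFP-negative cells. For Sox2, replicates 1 and 2 were the highest in each genotype. Interneuron markers summed to 156 to 221 CPM in replicates 1 and 4 and to 51.0 to 94.6 CPM in replicates 2, 3 and 5, and 7 of the 12 were highest in replicate 1 in both genotypes. Sensory neuron markers summed to 38.7 and 37.4 CPM in replicate 1 (control and knockout), 31.5 and 28.3 CPM in replicate 2, and 17.9 to 22.3 CPM in the others. Motor neuron markers summed to 1655 and 1709 CPM in replicate 1, 1650 and 1859 CPM in replicate 2, and 1849 to 2136 CPM in the others, and 0 of the 9 were highest in replicate 1 in either genotype. Of 6 endothelial markers 3 were called lower (32.6% of all genes tested). They summed to 12.7 CPM in knockout replicate 2 and 1.55 to 5.92 CPM in the other GFP-positive libraries, against 6.62 and 9.53 CPM in GFP-negative ones. Mesenchyme and pericyte markers summed to 2.49 to 13.6 CPM in GFP-positive and 28.2 and 28.5 CPM in GFP-negative libraries. The part of all these cells in the levels of the cell cycle genes was not tested.

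**Figure D3:**
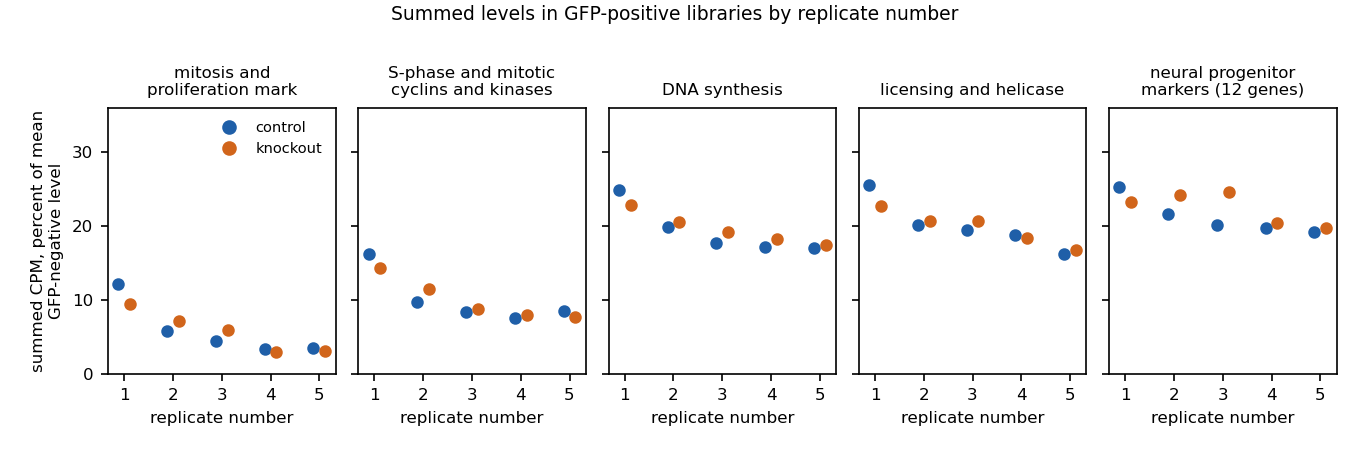
Summed CPM in each GFP-positive library, in percent of the mean of the GFP-negative libraries, for 4 groups of cell cycle genes and for the 12 progenitor markers; the horizontal axis is the replicate number, which carries no order. The mitosis genes run from 2.94% to 12.2% and the progenitor markers from 19.2% to 25.3%; replicate 1 is the highest in both genotypes in the 4 cell cycle panels, and in controls only for the progenitor markers.

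Related genes outside the 38 were read from lists chosen by function. The spindle, kinetochore and cytokinesis list was lower throughout: 17 of 17 were called lower, with a median of -3.63, among them Mad2l1, a spindle checkpoint protein (-2.92), and Incenp, the scaffold of the chromosomal passenger complex (-1.62). All 7 genes that switch Cdk1 were lower, with Cdc25b, its activating phosphatase, at -2.81 and Wee1, its inhibitory kinase, at -2.72. Origin recognition and firing genes were lower in 14 of 15, with a shallower median of -1.03; Gmnn, the Cdt1 inhibitor geminin, was at -2.86 and Dbf4, the activator of the Cdc7 kinase, at -1.61. With the replicate block 13 of the 15 were called lower, and the call of Orc6, an origin recognition subunit, was lost (-0.17, adjusted p = 0.0110, to -0.16, adjusted p = 0.0706). Cdc7 itself was not called, at -0.07 (95% confidence interval -0.23 to 0.09). Of 18 replication fork genes 17 were lower, with a median of -1.19; Pold1, the catalytic subunit of DNA polymerase delta, was at -1.65 and Fen1, the flap endonuclease, at -1.77. Rfc1, a clamp loader subunit, was not called, at -0.09 (95% confidence interval -0.21 to 0.03).

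Lists of regulators with duties beyond division differed in their counts. In the list of E2F, RB and MuvB regulators 16 of 19 were lower, including the RB relative Rbl1 (-1.59) and the E2F partner Tfdp2 (-1.56), while E2f6 was higher (0.21) and E2f3 and Rbl2 were not called. With the replicate block E2f3 was also called lower (-0.18, adjusted p = 0.0357). Core subunits of the anaphase-promoting complex and its activator Fzr1, also called Cdh1, gave 7 lower, 4 higher and 2 not called of 13, and the list's median was -0.22; the block gave the same counts, with the higher call passing from Anapc2 (0.11, adjusted p = 0.0578 with the block) to Anapc11 (0.14, adjusted p = 0.0382). Cdc26 (-0.62) and Cdc16 (-0.37) were lower, and Anapc5 (0.46) and Fzr1 (0.25) were higher, where Cdc20, the mitotic activator of the same complex, was at -4.20. CDKs and cyclins with roles outside the division cycle gave 9 lower, 5 higher and 4 not called of 18, with a median of -0.14, and with the block Cdk14 was also called lower (-0.13, adjusted p = 0.0460). Both lists hold higher calls at a share near the 31.1% of all genes tested. Ccni (-1.02) and Ccng2 (-0.50) were lower, and Cdk16 (0.33) and Cdk5r1 (0.32), an activator of the neuronal kinase Cdk5, were higher. Of 8 tested genes of cell cycle exit and other CDK inhibitors, 7 were lower, among them Btg2 (-2.80), an antiproliferative gene of neurogenic progenitors, and Hes6 (-1.45), and the INK4 inhibitor Cdkn2d, which encodes p19, was higher (0.64). All of these values are log2 fold changes from the same test.

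**Figure D4:**
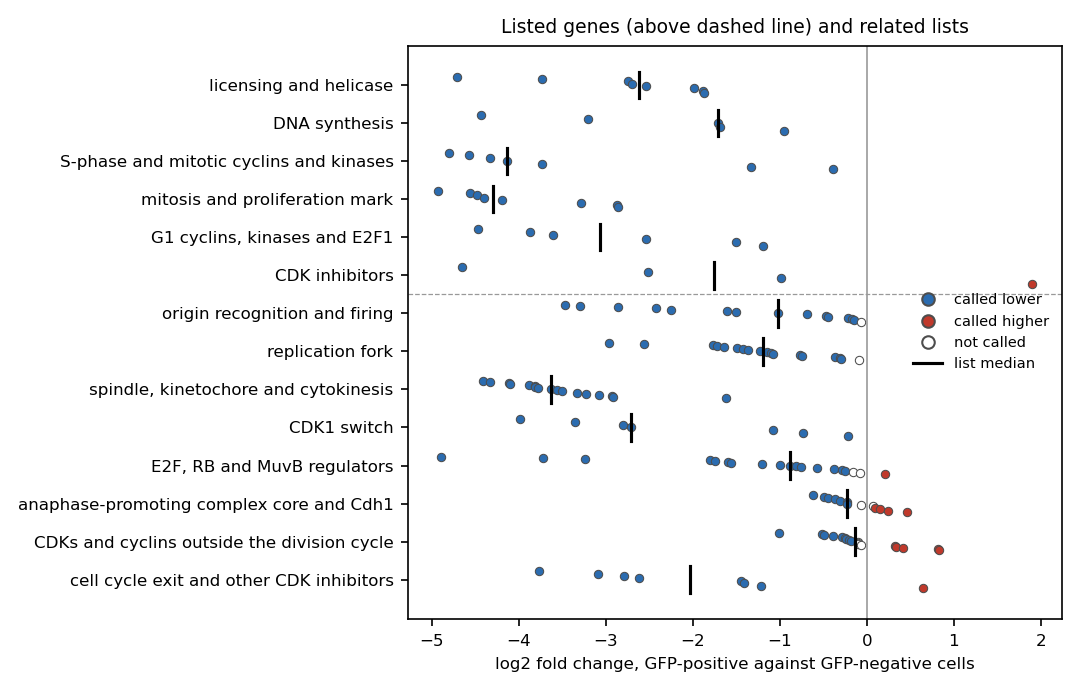
Log2 fold change of GFP-positive against GFP-negative cells for the 38 genes by role (above the dashed line) and for 8 related lists (below it); each point is a gene, blue was called lower, red higher, white not called, and the black bar is the list's median. Medians run from -4.30 for the mitosis group to -0.14 for CDKs and cyclins outside the division cycle, and Cdkn1a is the only point right of 1.

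Promoter sequence was read for what the genes share that the choice of genes did not use. Windows of 300 bases, from 250 before to 50 after a transcription start, were taken from RefSeq on GRCm38.p6 and matched 31 of the 38 genes. Short motifs known from cell cycle promoters were searched on both strands: the CHR element of MuvB targets (TTTGAA or TTCGAA), an E2F site (TTGGCGC or TTCCCGC) and the CCAAT box of the factor NF-Y. The CHR letters occurred in 11 of the 31 genes and in 19.2% of all 32851 windows, the E2F letters in 12 and in 6.81%, and CCAAT in 22 and in 37.4%. Over the 15013 windows of genes tested between fractions, which include those of the 31 genes, the shares were 13.8% for CHR, 11.2% for E2F and 37.5% for CCAAT. Among the 31 genes, one with several windows counted once if any held the motif. Of 7 matched mitosis genes 6 held both CHR and CCAAT, and the exception was Birc5. The share of all windows that hold both was not counted. Of 7 matched licensing and helicase genes 6 held the E2F letters. Of 4 matched genes among the G1 cyclins, kinases and E2F1, none held CHR or E2F letters in these windows. For E2f1, Cdk6, Cdc6, Mcm7 and Cdkn2c each window lies inside the annotated gene and does not cover its outermost start.

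The 250 bases before the start are shown for the gene with the lowest log2 fold change (Mki67), the gene with the highest (Cdkn1a, which has 2 starts in the table) and, chosen after the values were seen, a gene with all 3 motifs (Cdk1) and a helicase gene that kept more of its RNA (Mcm6). Each is written from 5′ to 3′ on the gene's strand, and capitals mark the motifs. Their positions are chr7:135716380-135716629 on the minus strand for Mki67, chr10:69352913-69353162 on the minus strand for Cdk1, chr1:128359706-128359955 on the minus strand for Mcm6, and chr17:29090729-29090978 and chr17:29093519-29093768 on the plus strand for Cdkn1a.
Mki67: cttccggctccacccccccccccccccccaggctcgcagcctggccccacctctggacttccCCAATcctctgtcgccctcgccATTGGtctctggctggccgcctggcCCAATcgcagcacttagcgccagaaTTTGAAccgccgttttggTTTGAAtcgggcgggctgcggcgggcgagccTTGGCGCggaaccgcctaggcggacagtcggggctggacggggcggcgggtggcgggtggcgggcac
Cdk1: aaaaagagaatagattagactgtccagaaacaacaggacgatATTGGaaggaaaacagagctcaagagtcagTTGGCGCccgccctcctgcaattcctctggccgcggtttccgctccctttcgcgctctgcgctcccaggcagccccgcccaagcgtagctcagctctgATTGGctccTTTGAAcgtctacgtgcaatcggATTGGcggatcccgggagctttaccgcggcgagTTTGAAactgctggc
Mcm6: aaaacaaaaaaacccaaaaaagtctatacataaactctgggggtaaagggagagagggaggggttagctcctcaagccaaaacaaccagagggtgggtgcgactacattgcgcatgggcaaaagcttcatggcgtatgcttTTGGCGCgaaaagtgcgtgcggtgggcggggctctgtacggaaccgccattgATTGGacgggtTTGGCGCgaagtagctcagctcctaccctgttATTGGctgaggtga
Cdkn1a, upstream start: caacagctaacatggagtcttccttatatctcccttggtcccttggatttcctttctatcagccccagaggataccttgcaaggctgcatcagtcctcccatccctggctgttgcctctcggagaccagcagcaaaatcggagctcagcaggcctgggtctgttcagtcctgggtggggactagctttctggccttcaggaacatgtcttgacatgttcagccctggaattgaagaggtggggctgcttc
Cdkn1a, downstream start: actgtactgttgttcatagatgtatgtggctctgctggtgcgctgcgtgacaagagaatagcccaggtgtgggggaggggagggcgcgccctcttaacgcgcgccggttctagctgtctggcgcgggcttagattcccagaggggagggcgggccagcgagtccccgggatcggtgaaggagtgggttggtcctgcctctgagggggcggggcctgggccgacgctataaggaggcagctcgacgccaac
Mki67 and Cdk1, which kept 3.27% and 4.2%, both held all 3 motifs, with 2 CHR matches, 1 E2F match and 3 CCAAT matches each. Mcm6, which kept 27.4%, held 2 E2F and 2 CCAAT matches and no CHR letters. Mcm7, which kept 27.2%, held 1 CHR, 2 E2F and 3 CCAAT matches in its window at chr5:138171834-138172133. Mcm3, which kept 3.8%, held 3 E2F and 3 CCAAT matches and no CHR letters. Ccnb1, which kept 3.56%, held 1 E2F and 2 CCAAT matches and no CHR letters. Some of these matches share letters: in the windows of Mcm7, Mcm3 and Ccnb1, 4 bases were counted in more than 1 match. For Mcm7 and Ccnb1 the shared bases belong to an E2F and a CCAAT match, and for Mcm3 to E2F matches on opposite strands. Whether any motif follows the residual level was not tested. Neither Cdkn1a window held any of the letters searched. Nor did the windows of Cdk4, Tyms and Ccne1, which kept 35.2%, 51.6% and 76.2%, or those of E2f1 and Cdk6, which kept 6.79% and 8.23%. The windows of E2f1 and Cdk6, however, lie inside the annotated genes (chr2:154559407-154569892 on the minus and chr5:3341485-3531008 on the plus strand). Sequence before the outermost start of these genes was therefore not searched. A match describes letters in a window and not a bound site.

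Loss of Arhgap35 was the comparison named by the study, and here it asks whether cell cycle RNA in GFP-positive cells differed between knockout and control embryos. None of the 37 genes that passed the filter was called (0.0343% of 17487 genes were, in either direction), and none had an unadjusted p under 0.05 (2.14% of all genes did); DESeq2 and limma-voom called none either. Log2 fold changes ran from -0.34 to 0.22 with a median of -0.02, 20 below 0 and 17 above. For 25 of the 37 the 95% confidence interval lay within a 2-fold change either way. The widest interval, that of Mki67, reached from -2.02 to 1.87, so a change of several fold in that gene could not be detected in this fit. Of the 8 mitosis genes, Plk1, Aurka and Birc5 had intervals within a 2-fold change and the other 5 did not. In none of the 37 were the genotypes free of overlap (0.538% of all genes). Cdkn2c was not tested.

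The 3 genes with the smallest p were Mcm5, Plk1 and Cdkn1a. Mcm5 was at 15, 12.1, 9.61, 10.2 and 11.8 CPM in control replicates 1 to 5, at 11.4, 12.3, 9.51, 9.74 and 9.55 CPM in knockout replicates 1 to 5, and at 69.7 (control) and 74.4 CPM (knockout) in GFP-negative cells. Its log2 fold change between genotypes was -0.16 (SE 0.123, 95% confidence interval -0.43 to 0.11). Plk1 was at 6.56, 3.74, 4.03, 2.93 and 3.69 CPM in control replicates 1 to 5, at 5.05, 3.3, 3.67, 2.43 and 2.6 CPM in knockout replicates 1 to 5, and at 32.3 (control) and 41.1 CPM (knockout) in GFP-negative cells. The groups overlapped, although knockout lay below control in each of the 5 same-numbered pairs, by factors of 0.706 to 0.911. Its log2 fold change was -0.31 (SE 0.242, 95% confidence interval -0.83 to 0.22), and that of Cdkn1a was 0.14 (SE 0.133, 95% confidence interval -0.15 to 0.43). Adjusted p was 0.9999 for all 3.

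With the replicate number as a block, again 0 of 37 were called (0.0286% of all genes were), and 1, Plk1, had an unadjusted p under 0.05 (log2 fold change -0.29, adjusted p = 0.886), as had 5.08% of all genes. The block narrowed the median standard error from 0.229 to 0.110, and all 37 intervals then lay within a 2-fold change. For Mki67 the interval became -0.36 to 0.63, around a log2 fold change of 0.13. For Pcna it was -0.03 to 0.14 and for Cdkn1a -0.01 to 0.26.

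**Figure D5:**
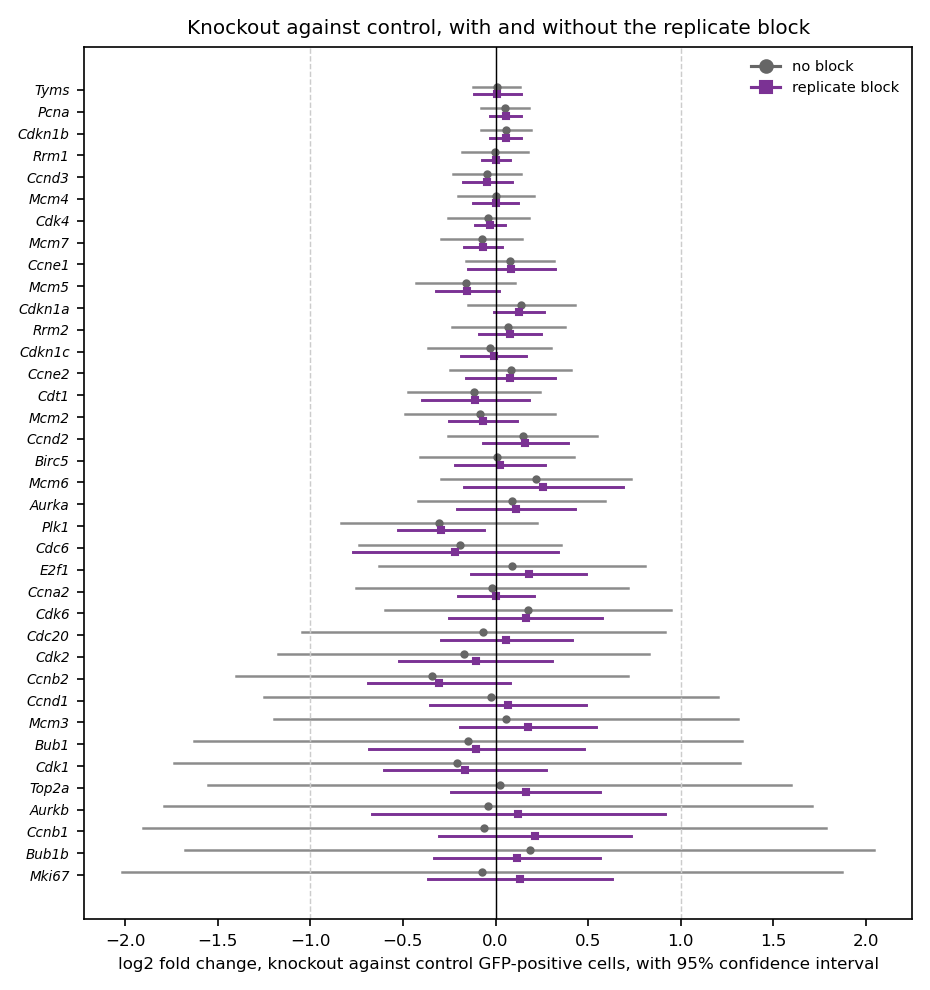
Log2 fold change of knockout against control GFP-positive cells with its 95% confidence interval for 37 genes, ordered by standard error, without (grey circles) and with (purple squares) the replicate number as a block; dashed lines mark a 2-fold change. Intervals without the block are widest for Mki67 and Bub1b, and with it the interval of Plk1 alone leaves out 0.

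Whether the knockout effect differed between the fractions was asked by an interaction contrast, with the effect in GFP-positive cells subtracted from that in GFP-negative cells. None of the 38 genes was called (0.0253% of 19763 genes were) and none had an unadjusted p under 0.05 (1.78% of all genes did); DESeq2 and limma-voom called none either. The smallest p values belonged to Ccnd3 (0.35, 95% confidence interval -0.07 to 0.78), Plk1 (0.66, interval -0.56 to 1.89) and Cdc6 (0.48, interval -0.57 to 1.53), as log2 differences with an adjusted p above 0.999 for each. Ccnd3 was at 13.1, 12, 10.5, 10.8 and 11.6 CPM in control replicates 1 to 5, at 12.1, 12.51, 9.96, 10.9 and 10.7 CPM in knockout replicates 1 to 5, and at 23.5 (control) and 29 CPM (knockout) in GFP-negative cells, with overlapping genotypes in GFP-positive cells and 1 library of each genotype in GFP-negative cells. Each lone GFP-negative library was taken to vary like the replicated groups. With the block, 0 were called (0.00506% of all genes were) and 3 had an unadjusted p under 0.05, as had 3.1% of all genes. These were Cdk1 (0.60, 95% confidence interval 0.02 to 1.19), Plk1 (0.64, 95% confidence interval 0.27 to 1.02) and Ccnd3 (0.35, 95% confidence interval 0.06 to 0.64), each with an adjusted p of 1.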

How the data were processed

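Poly(A) RNA libraries were read as 50-base single ends from a kit that does not keep strand, per the labels' protocols. Estimated counts per gene symbol were deposited as a table, made with kallisto on mm10 per the submitters' processing notes, with no version or transcript summing given in the sources used here; 39.2% of the values are exactly whole (a tolerance of 0). The authors also deposited TPM, whose columns sum to 974800 to 1018240, so they were rescaled in an unstated way.

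From these, rounded estimated counts passing filterByExpr were TMM-scaled and entered edgeR 4.0.16's robust quasi-likelihood test (R 4.3.3). Calls needed a Benjamini-Hochberg adjusted p, over every gene in the fit, under 0.05. Fractions were compared over 12 libraries with genotype as a covariate, genotypes over 10 GFP-positive libraries, and the interaction over 4 group means. Levels are CPM on TMM-scaled totals, and intervals are at 95%. TPM served to compare levels between genes. No library was a duplicate of another in its group (chi-square per degree of freedom of at least 7.92). The scripts were checked on simulated counts.

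Same-numbered GFP-positive libraries deviated together from their group means (r = 0.381, 0.252, 0.179, 0.277 and 0.310 for numbers 1 to 5, against at most 0.104 for other pairs), so the numbers pair the samples. What they share is unknown. The members and lists were chosen with earlier results of these data known. Full values go to the genes called higher, the 3 highest and 3 lowest by mean CPM, the lead gene of each role, and the 3 smallest p between genotypes; from each related list, up to 2 called genes per direction with the smallest p are named. Any other gene is named with its values known. Alternative settings comprised other scalings and filters, DESeq2 1.42.0, limma-voom, limma 3.58.1 on log2 TPM with pseudocounts of 1 and 0.1, the replicate block, single genotypes, and leaving out each library.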

Additional observations from a re-analysis of the deposited data

Results flagged for a closer look

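A check for single values far from their group was run on the 38 genes in each set of 5 GFP-positive libraries, 76 sets in all, of which chance alone would mark about 3.8. It marked 8, each time because control replicate 1 lay far above the other 4 control libraries. All 8 marks come from that library, so they are not separate events to set against the 3.8. Mcm2 was at 27.4 CPM there and at 15.1 to 18.1 CPM in the others. Ccne2 was at 4.74 CPM against 3.35 to 3.70 CPM. Among mitotic genes, Ccnb1 was at 7.72 CPM against 0.460 to 2.55 CPM, Ccnb2 at 3.61 CPM against 0.847 to 1.49 CPM, and Cdc20 at 5.5 CPM against 1.34 to 2.04 CPM. The Aurora kinases Aurka and Aurkb were at 4.47 CPM against 2.01 to 2.59 CPM and at 2.85 CPM against 0.167 to 0.935 CPM. Ccnd1 was at 22.7 CPM against 4.53 to 9.73 CPM. No set of knockout libraries was marked. Without control replicate 1, all 38 calls between fractions were made again, with a median log2 fold change of -3.13.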

How the results depend on the processing

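Between fractions, 30 alternatives were run, and 35 to 37 of the 38 genes were called lower and 1, Cdkn1a, higher in each. Gene by gene, 1131 alternative values kept direction and call; 4 others, all of Ccne1, kept direction and lost the call, as given above with the replicate block, without the control GFP-negative library and in either genotype alone. Counts under 37 came from those cases, from filters that removed Cdc6 and Cdkn2c (CPM of at least 1 in 5 libraries) or Cdkn2c (mean TPM of at least 1), and from DESeq2, which gave Ccnb1 no adjusted p. Leaving out each library gave 36 to 37 lower. The replicate block changed no call of a member other than that of Ccne1, and moved the median from -3.04 to -2.56. That fit takes the difference between fractions from replicate 1, and a fit on replicate 1 alone gave a median of -2.52.

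Between genotypes 0 genes were called under each of 24 alternatives, and in the interaction 0 under each of 22. The interaction value of Cdc6 (0.48) turned to -0.0223 and -0.0212 when limma was run on log2 TPM (pseudocounts 1 and 0.1), and to -0.0223 without a filter; it passed no threshold in any fit, and the cause was not tested. The interaction could not be fitted without either GFP-negative library. Scaling moved the median of all genes by at most 0.0518.

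Depth limits the rarest genes: Cdkn2c had 0 counts in 4 GFP-positive libraries. The GFP-negative fraction rests on 2 libraries. Estimated counts split reads between a gene and its copies, and 6 genes share at least 20% of their 31-base words with another gene.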
